A study of Mus musculus with 24 samples.

Results

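The genes described are 10 genes of retinal blood vessels and of the response to low oxygen: the endothelial genes Cdh5, Cldn5, Pecam1, Kdr, Flt1, Tek and Tie1, the growth factor gene Vegfa, and the hypoxia-inducible factor genes Hif1a and Epas1. They were taken as the table entries whose gene symbol is on this list, which found 10 of 10 genes among the 28802 genes of the table. RNA of the mouse retina was sequenced from stranded total RNA libraries after removal of ribosomal RNA, in 24 libraries from 8 inbred strains with 3 libraries each. The strains, all labelled wild type and taken at postnatal day 28, were 129S1/Svlmj, C57BL/6J, NOD/ShiLtJ, A/J, PWK/PhJ, WSB/EiJ, NZO/HlLtJ and CAST/EiJ. No treatment was given, so strain is what separates the groups, and the labels name no batch. According to the study, libraries were pooled for sequencing in a randomized block design, but the labels do not give the block of a library, so that no fit took it into account.

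Vessels grow into the mouse retina after birth, led by endothelial cells that follow VEGF released by astrocytes, Mueller glia and neurons. VEGF acts on the endothelial receptors encoded by Kdr and Flt1, while the angiopoietin receptor encoded by Tek and its partner encoded by Tie1 act in the stabilising of vessels, and the junction proteins of Cdh5, Cldn5 and Pecam1 hold endothelial cells together and seal the inner barrier between blood and retina. Hif1a and Epas1 encode the alpha subunits of hypoxia-inducible factors, which are controlled mainly through the stability of the protein and which activate Vegfa and genes of glycolysis when oxygen is low.

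Levels are given in cpm, the reads of a gene scaled to the same total of reads in each library. Over the genes of the table the cpm of a library summed to between 332472 (WSB/EiJ replicate 2) and 366570 (NOD/ShiLtJ replicate 1). Replicate numbers give the order in which the labels list the libraries of a strain and pair nothing between strains. Replicates 1, 2 and 3 held 61529000, 76306000 and 62649000 reads in 129S1/Svlmj, 62595000, 78150000 and 59421000 in C57BL/6J, and 76172000, 74452000 and 71688000 in NOD/ShiLtJ. They held 76303000, 61769000 and 63205000 reads in A/J, 65426000, 58627000 and 70453000 in PWK/PhJ, and 65980000, 71815000 and 57607000 in WSB/EiJ. The remaining strains had 68311000, 69574000 and 63760000 reads in NZO/HlLtJ, and 72972000, 77886000 and 76607000 in CAST/EiJ. At these depths 3 reads correspond to between 0.0384 and 0.0521 cpm, below the lowest member value of 0.379 cpm (Tie1 in CAST/EiJ replicate 3). The labelled tissue was checked by photoreceptor genes, which were high in all 24 libraries. Gnat1 lay between 1697 and 2598 cpm, Pde6b between 495 and 744 cpm, and Rcvrn between 139.8 and 204 cpm. Summed levels of 12 lens genes set 3 libraries apart: 129S1/Svlmj replicate 2 had 1871 cpm, NOD/ShiLtJ replicate 2 had 2120 cpm and C57BL/6J replicate 2 had 253 cpm. In the other 21 libraries that sum lay between 6.41 and 101 cpm. Each count of members below was therefore also taken with these 3 libraries left out, an alternative chosen after seeing the data.

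Strain differences were tested with limma on log2(cpm + 1) over all 16400 genes whose mean reached 0.5 cpm, which all 10 members passed. A gene is called when its q-value, the expected share of false calls, is under 0.01. All 10 members were called in the F-test over the 8 strains, beside 91.7 percent of the 16400 genes tested, so that this call does not set the members apart from other genes. The q-value scales with the estimated share of true nulls, 0.0498 in the F-test, which makes this call lenient. With Benjamini-Hochberg adjustment at the same limit, 10 members and 70.6 percent of the genes were called. No test of these shares was made. The median range between the highest and the lowest strain mean was 0.59 (log2) for the 10 members and 0.43 for all genes tested, with median SDs within strains of 0.101 and 0.094. Levels were set beside each other in cpm per kilobase of exon. The length joined the exons of all annotated transcripts of a gene, whichever are expressed, so these levels are approximate. The means over the 24 libraries were 46.3 for Hif1a, 10.3 for Vegfa, 8.01 for Kdr and 3.46 for Epas1. On the same scale Flt1 had 1.82, Cldn5 1.68, Tek 0.538, Pecam1 0.496, Cdh5 0.260 and Tie1 0.159.

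Each strain was then compared with the mean of the other 7 strains, which asks which strain stands apart for which member. The 8 comparisons share all libraries, so their counts are not independent of each other. In CAST/EiJ 5 of the 10 members were lower, beside 28.8 percent of all genes, and 2 were higher, beside 20.0 percent. In C57BL/6J 4 members were higher, beside 12.5 percent, and 1 was lower, beside 10 percent. PWK/PhJ had 2 members higher, beside 26.0 percent, and 3 lower, beside 22.4 percent. A/J had 3 members higher, beside 14.6 percent, and 2 lower, beside 12.3 percent. NOD/ShiLtJ had 3 members higher, beside 14.5 percent, and 0 lower, beside 8.93 percent. WSB/EiJ had 1 member higher, beside 12.3 percent, and 3 lower, beside 21.5 percent. NZO/HlLtJ had 2 members higher, beside 12.3 percent, and 1 lower, beside 12.9 percent. In 129S1/Svlmj 0 members were higher, beside 14.3 percent, and 1 was lower, beside 12.6 percent. At an unadjusted p from limma under 0.05, 2 members were higher in 129S1/Svlmj and 0 were lower in NOD/ShiLtJ. These counts rest on at most 5 genes in a direction, no test of the shares was made, and nothing particular to the members is read from them. The median difference of the 10 members was 0.14 (log2) in C57BL/6J, where that of all genes was 0.00, and -0.17 in CAST/EiJ, where that of all genes was -0.03. It was 0.12 in NOD/ShiLtJ (0.029 for all genes), 0.08 in A/J (0.012) and -0.11 in PWK/PhJ (0.021). In the remaining strains it was -0.06 in WSB/EiJ (-0.038), -0.03 in 129S1/Svlmj (0.001) and -0.02 in NZO/HlLtJ (-0.005).

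Of the 80 pairs of member and strain, 33 were called, and 31 of these were also called without the 3 libraries high in lens genes. Of all genes tested, between 22.5 percent (in C57BL/6J) and 48.8 percent (in CAST/EiJ) were called in a strain. Without these 3 libraries the counts were 2 in NOD/ShiLtJ (3 with all libraries) and 8 in CAST/EiJ (7 with all libraries). The number was unchanged in the other strains. In C57BL/6J it stayed at 5 although the call of Tie1 was lost there, so another member was called in its place. The shares of all genes called were 20.7 percent in NOD/ShiLtJ (23.4 with all libraries), 49.9 in CAST/EiJ (48.8) and 19.8 in C57BL/6J (22.5). The counts in some strains rested on few libraries. The count of 1 in 129S1/Svlmj (26.9 percent of all genes) was 0 without 129S1/Svlmj replicate 3 (17.9 percent). It was 2 without A/J replicate 3 (26.7 percent), WSB/EiJ replicate 1 (27), WSB/EiJ replicate 3 (26.1) or CAST/EiJ replicate 3 (27.1). The count of 5 in A/J (27.0 percent of all genes) was 1 without A/J replicate 2 (17.4 percent). It was 2 without A/J replicate 3 (19 percent) and 3 without NZO/HlLtJ replicate 2 (25.8 percent). The count of 3 in NOD/ShiLtJ (23.4 percent of all genes) was 1 without NOD/ShiLtJ replicate 1 (15.2 percent). That of 3 in NZO/HlLtJ (25.2 percent) was 1 without NZO/HlLtJ replicate 1 (15.5 percent). The count of 5 in PWK/PhJ was 8 with median-ratio scaling, where 49.1 percent of all genes were called in that strain, and 8 with a q limit of 0.05, where 63.6 percent were, beside 48.4 percent in the main fit. The count of 5 in A/J was 2 with no filter on low values (17.5 percent of all genes), 2 with Benjamini-Hochberg adjustment (22.0 percent) and 3 with ordinary least squares (25.5 percent), beside 27.0 percent in the main fit. The split of all called genes into higher and lower moved with the scaling: 61.9 percent of those called in NOD/ShiLtJ were higher on the deposited scale, 51.2 percent after median-ratio scaling and 47.5 percent after quantile normalization. In WSB/EiJ the shares were 36.4, 49.3 and 49.2 percent, and in CAST/EiJ 41.0, 49.2 and 50.7 percent. In A/J they were 54.2, 49.2 and 49.2 percent, and in PWK/PhJ 53.6, 48.9 and 49.7 percent. In bulk tissue, fewer cells of a type and less RNA per cell cannot be told apart, which holds for each difference given here. Reads of all strains were aligned to the same reference genome (GRCm38/mm10). The part in these differences of reads lost where a strain's sequence departs from that reference was not tested.

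**Figure D1:**
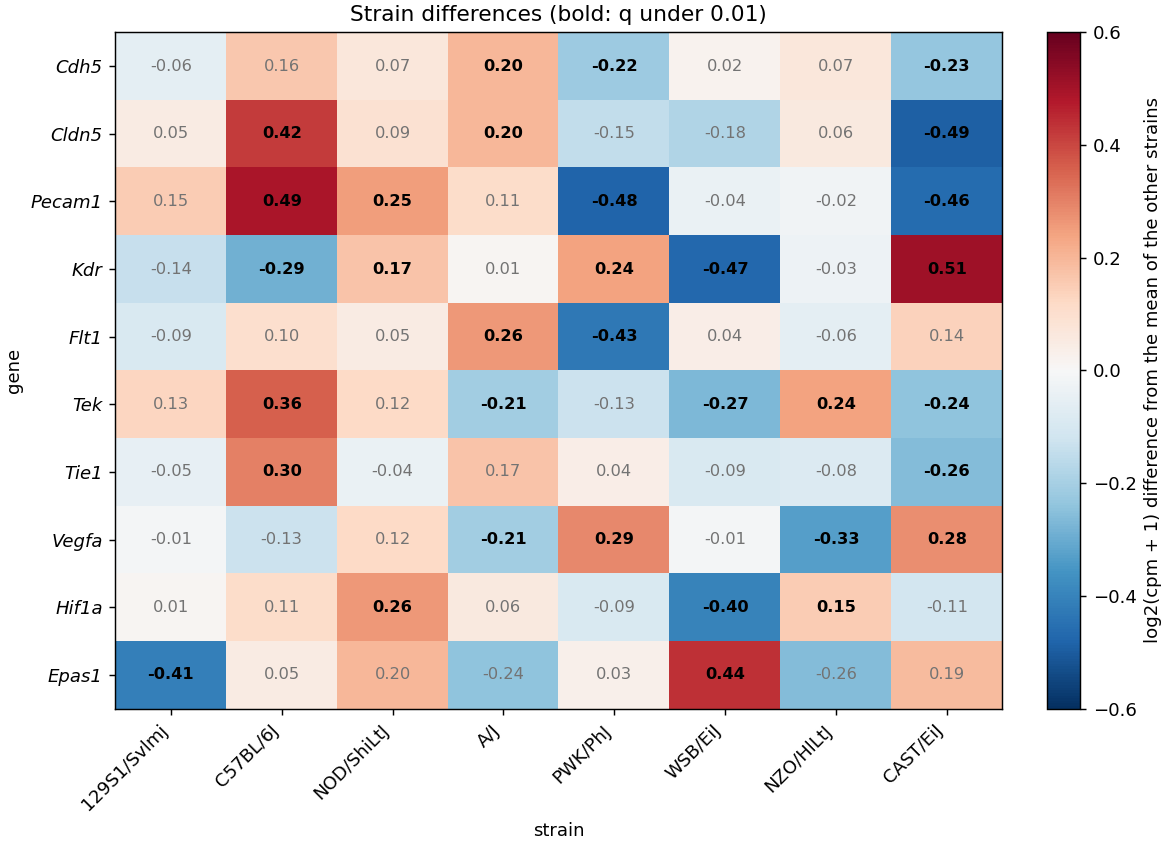
Log2 difference of each member in each strain from the mean of the other 7 strains, as a colour scale, with values of q under 0.01 in bold. On log2(cpm + 1), Kdr in CAST/EiJ stands at 0.51 and Cldn5 in CAST/EiJ at -0.49.

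Cdh5 (chr8:104101625-104144512, plus strand, GRCm38) encodes VE-cadherin, the adhesion protein of endothelial junctions. Its libraries gave 1.07, 1.44 and 1.57 cpm in A/J, 1.33, 1.41 and 1.14 in C57BL/6J, and 1.14, 0.994 and 1.38 in NOD/ShiLtJ. They gave 1.05, 1.22 and 1.24 cpm in NZO/HlLtJ, 0.985, 1.14 and 1.20 in WSB/EiJ, and 1.01, 1.06 and 0.958 in 129S1/Svlmj. The lowest strains had 0.688, 0.887 and 0.894 cpm in PWK/PhJ and 0.644, 1.00 and 0.796 in CAST/EiJ. The order of strain means is the order of these values, and each strain overlapped its neighbour except 129S1/Svlmj and PWK/PhJ, whose libraries lay apart. Means ran from 1.36 ± 0.256 cpm in A/J to 0.814 ± 0.179 cpm in CAST/EiJ (SD, n = 3). Against the other 7 strains Cdh5 was lower in CAST/EiJ, with a log2 difference of -0.23 (SE 0.0649, q = 0.00138), and all 3 libraries lay below the mean of the others. In PWK/PhJ the difference was -0.22 (SE 0.0649, q = 0.00205), again with 3 of 3 libraries below. A/J was higher, with a difference of 0.20 (SE 0.0649, q = 0.00871). The added 1 makes these differences smaller, and with a pseudocount of 0.1 they were -0.431 in CAST/EiJ, -0.403 in PWK/PhJ and 0.345 in A/J. The PWK/PhJ call was lost without PWK/PhJ replicate 1 (-0.17, q = 0.031) and the CAST/EiJ call without CAST/EiJ replicate 1 (-0.16, q = 0.0306). The A/J call was lost in 19 of 32 alternatives. It fell to 0.14 (q = 0.101) without A/J replicate 3 and to 0.17 (q = 0.063) without A/J replicate 2. It had q between 0.0101 and 0.0114 without 129S1/Svlmj replicate 1 or 3, C57BL/6J replicate 3, NOD/ShiLtJ replicate 1 or 2, PWK/PhJ replicate 1, WSB/EiJ replicate 1, NZO/HlLtJ replicate 1 or 2, or CAST/EiJ replicate 1 or 3. It was also lost with a pseudocount of 0.1 (0.345, q = 0.0116), no filter on low values (q = 0.0179), median-ratio scaling (q = 0.011), quantile normalization (q = 0.0139), Benjamini-Hochberg adjustment (q = 0.0202) and ordinary least squares (q = 0.0123).

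Cldn5 (chr16:18776847-18778263, plus strand) encodes claudin-5, the main tight junction claudin of barrier endothelium. The highest strains gave 2.99, 3.93 and 3.05 cpm in C57BL/6J, 2.83, 2.83 and 2.61 in A/J, and 2.23, 2.52 and 2.79 in NOD/ShiLtJ. Intermediate values were 2.44, 2.59 and 2.32 cpm in NZO/HlLtJ, 2.36, 2.61 and 2.33 in 129S1/Svlmj, and 1.79, 2.18 and 2.19 in PWK/PhJ. The lowest were 1.99, 1.95 and 2.03 cpm in WSB/EiJ and 1.25, 1.68 and 1.49 in CAST/EiJ. All 3 C57BL/6J libraries lay above all 21 others, and all 3 CAST/EiJ libraries lay below all 21 others. Between these ends the order was A/J, NOD/ShiLtJ, NZO/HlLtJ, 129S1/Svlmj, PWK/PhJ and WSB/EiJ, with libraries overlapping between all neighbours but 129S1/Svlmj and PWK/PhJ. The mean in C57BL/6J was 3.32 ± 0.527 cpm (SD, n = 3), 1.48-fold the mean of the other strains, with a log2 difference of 0.42 (SE 0.0630, q = 7.64e-06). The mean in CAST/EiJ was 1.47 ± 0.218 cpm, 58.8 percent of the mean of the others, with a log2 difference of -0.49 (SE 0.0630, q = 2.06e-07). The range over strain means was 2.26-fold. A/J was higher, with a difference of 0.20 (SE 0.0630, q = 0.0075), a call that was lost without A/J replicate 1 (0.19, q = 0.04), replicate 2 (0.18, q = 0.046) or replicate 3 (0.23, q = 0.0161), with no filter on low values (q = 0.0176) and with Benjamini-Hochberg adjustment (q = 0.0174).

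Pecam1 (chr11:106654217-106750629, minus strand) encodes the adhesion protein CD31, found on endothelium and also on platelets and leukocytes. Its libraries gave 4.11, 4.70 and 4.39 cpm in C57BL/6J, 3.75, 3.67 and 3.61 in NOD/ShiLtJ, and 3.02, 3.45 and 3.73 in 129S1/Svlmj. They gave 2.74, 3.30 and 3.89 cpm in A/J, 3.28, 2.79 and 2.84 in NZO/HlLtJ, and 2.82, 2.91 and 2.99 in WSB/EiJ. The lowest values were 1.92, 1.95 and 2.25 cpm in CAST/EiJ and 1.94, 2.12 and 1.96 in PWK/PhJ. The C57BL/6J libraries lay above all 21 others, and those of CAST/EiJ and PWK/PhJ overlapped each other and lay below every library of the remaining 6 strains. Other neighbours in the order of means overlapped. C57BL/6J had a mean of 4.40 ± 0.295 cpm (SD, n = 3) and a log2 difference of 0.49 (SE 0.0620, q = 8.51e-07). PWK/PhJ had 2.005 ± 0.0958 cpm, a log2 difference of -0.48 (SE 0.0620, q = 2.93e-07), and CAST/EiJ had 2.04 ± 0.180 cpm, a difference of -0.46 (SE 0.0620, q = 4.74e-07). The fold between the highest and the lowest strain mean was 2.19. NOD/ShiLtJ was higher, with a difference of 0.25 (SE 0.0620, q = 0.00152), which was lost without NOD/ShiLtJ replicate 1 (0.24, q = 0.0152).

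**Figure D2:**
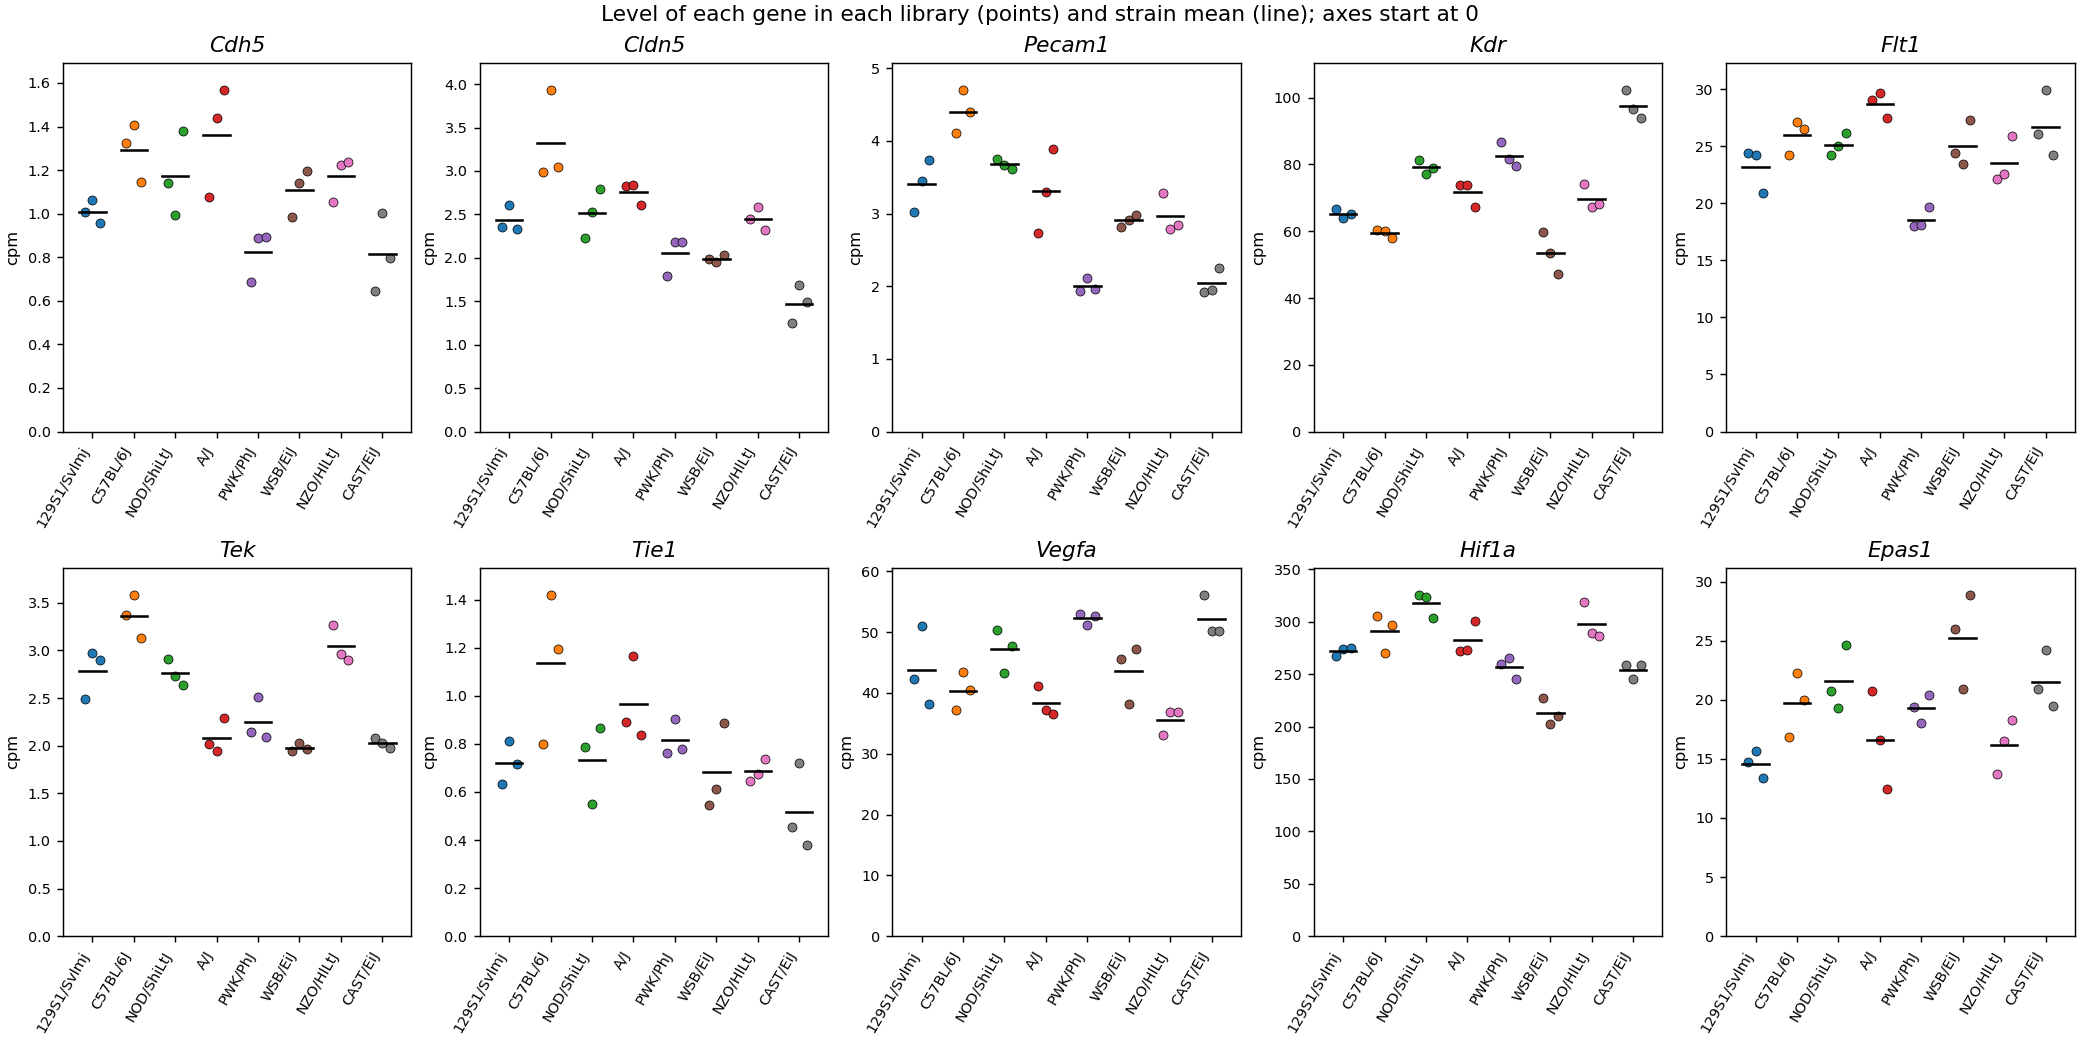
Level in cpm of each member in each of the 24 libraries by strain, with a line at each strain mean (n = 3). Cldn5 and Pecam1 are highest in C57BL/6J, at means of 3.32 and 4.40 cpm, where Kdr has a mean of 59.5 cpm beside 97.5 cpm in CAST/EiJ.

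Kdr (chr5:75932827-75978459, minus strand) encodes VEGF receptor 2, which carries most of the VEGF signal in endothelium and is known in the retina from neurons as well. Its libraries gave 102, 96.6 and 93.8 cpm in CAST/EiJ, against 86.6, 81.5 and 79.5 in PWK/PhJ and 81.5, 77.1 and 78.8 in NOD/ShiLtJ. They gave 73.8, 73.8 and 67.3 cpm in A/J, 74.1, 67.2 and 68.0 in NZO/HlLtJ, and 66.7, 63.9 and 65.2 in 129S1/Svlmj. The lowest strains had 60.4, 60.1 and 58.1 cpm in C57BL/6J and 59.9, 53.5 and 47.2 in WSB/EiJ. All 3 CAST/EiJ libraries lay above all 21 others. PWK/PhJ and NOD/ShiLtJ overlapped each other and lay above A/J and NZO/HlLtJ, which overlapped, 129S1/Svlmj lay below these, and C57BL/6J and WSB/EiJ overlapped at the low end. The mean in CAST/EiJ was 97.5 ± 4.25 cpm (SD, n = 3), 1.42-fold the mean of the other strains, with a log2 difference of 0.51 (SE 0.0471, q = 1.24e-09). In PWK/PhJ it was 82.5 ± 3.67 cpm with a difference of 0.24 (SE 0.0471, q = 5.49e-05). WSB/EiJ had 53.5 ± 6.34 cpm, 71.3 percent of the mean of the others, and a difference of -0.47 (SE 0.0471, q = 1.49e-08). C57BL/6J had 59.5 ± 1.28 cpm and a difference of -0.29 (SE 0.0471, q = 2.27e-05), the opposite direction to Cldn5, Pecam1, Tek and Tie1 in the same libraries. The NOD/ShiLtJ difference of 0.17 (SE 0.0471, q = 0.00365) was lost after median-ratio scaling (0.14, q = 0.016), without NOD/ShiLtJ replicate 1 (0.15, q = 0.038) or replicate 3 (0.17, q = 0.0189), and without the 3 libraries high in lens genes (0.19, q = 0.0104).

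Flt1 (chr5:147561604-147726012, minus strand) encodes VEGF receptor 1, which binds VEGF tightly and is also made in a soluble form that holds VEGF away from other receptors; the table gives the forms as a sum. The libraries gave 29.1, 29.6 and 27.5 cpm in A/J, 26.0, 29.9 and 24.2 in CAST/EiJ, and 24.2, 27.1 and 26.5 in C57BL/6J. They gave 24.2, 25.0 and 26.2 cpm in NOD/ShiLtJ, 24.4, 23.4 and 27.3 in WSB/EiJ, and 22.2, 22.5 and 25.9 in NZO/HlLtJ. The lowest strains had 24.4, 24.2 and 20.9 cpm in 129S1/Svlmj and 17.99, 18.1 and 19.6 in PWK/PhJ. The PWK/PhJ libraries lay below all 21 others, and every other pair of neighbours in the order overlapped. The mean in PWK/PhJ was 18.6 ± 0.935 cpm (SD, n = 3), 72.9 percent of the mean of the other strains, with a log2 difference of -0.43 (SE 0.0581, q = 4.94e-07). A/J was highest at 28.7 ± 1.12 cpm, with a difference of 0.26 (SE 0.0581, q = 0.000606) and 1 library of another strain above its lowest. CAST/EiJ, where Kdr was highest, had 26.7 ± 2.91 cpm of Flt1 and was not called, with a difference of 0.14 (SE 0.0581, q = 0.0156). The ratio of Flt1 to Kdr, in cpm, was 0.225 ± 0.01998 in PWK/PhJ and 0.274 ± 0.0306 in CAST/EiJ, and 0.474 ± 0.0913 in WSB/EiJ (SD, n = 3). The libraries gave ratios of 0.208, 0.222 and 0.247 in PWK/PhJ, below the lowest of WSB/EiJ, 0.408.

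Tek (chr4:94739289-94874977, plus strand) encodes the angiopoietin receptor TIE2. Its libraries gave 3.37, 3.58 and 3.13 cpm in C57BL/6J, 3.27, 2.96 and 2.90 in NZO/HlLtJ, and 2.49, 2.98 and 2.90 in 129S1/Svlmj. They gave 2.92, 2.73 and 2.64 cpm in NOD/ShiLtJ, 2.14, 2.51 and 2.09 in PWK/PhJ, and 2.02, 1.94 and 2.29 in A/J. The lowest strains had 2.08, 2.03 and 1.97 cpm in CAST/EiJ and 1.94, 2.03 and 1.96 in WSB/EiJ. C57BL/6J was highest but overlapped NZO/HlLtJ by 1 library, and of the neighbours in the order NOD/ShiLtJ and PWK/PhJ lay apart. C57BL/6J had a mean of 3.36 ± 0.227 cpm (SD, n = 3) and a log2 difference of 0.36 (SE 0.0512, q = 3.87e-06). NZO/HlLtJ was higher, with a difference of 0.24 (SE 0.0512, q = 0.000492). WSB/EiJ was lower, with a difference of -0.27 (SE 0.0512, q = 9.37e-05), and so was CAST/EiJ, with -0.24 (SE 0.0512, q = 0.000134) and 3 of 3 libraries below the mean of the others in each. A/J was lower, with a difference of -0.21 (SE 0.0512, q = 0.00125), opposite to its Cdh5, Cldn5 and Flt1. The A/J call was lost without A/J replicate 1 (-0.20, q = 0.0122) or replicate 2 (-0.18, q = 0.0215), and the NZO/HlLtJ call without NZO/HlLtJ replicate 1 (0.20, q = 0.0134).

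Tie1 (chr4:118471191-118490062, minus strand) encodes a receptor that pairs with TIE2 and had the lowest level of the 10 members per kilobase of exon. The highest strains gave 0.799, 1.42 and 1.20 cpm in C57BL/6J, 0.891, 1.17 and 0.839 in A/J, and 0.764, 0.904 and 0.781 in PWK/PhJ. The next gave 0.788, 0.551 and 0.865 cpm in NOD/ShiLtJ, 0.634, 0.813 and 0.718 in 129S1/Svlmj, and 0.644, 0.676 and 0.737 in NZO/HlLtJ. The lowest had 0.546, 0.613 and 0.885 cpm in WSB/EiJ and 0.452, 0.719 and 0.379 in CAST/EiJ. All neighbours in the order overlapped, and the spread within strains was wide, with 0.799 and 1.42 cpm in libraries of C57BL/6J. C57BL/6J was higher, with a log2 difference of 0.30 (SE 0.0776, q = 0.00242), and CAST/EiJ lower, with -0.26 (SE 0.0776, q = 0.00219). With a pseudocount of 0.1 these were 0.573 and -0.582, and in cpm the means were 1.56-fold and 63.0 percent of those of the other strains. The C57BL/6J call was lost without C57BL/6J replicate 2 (0.21, q = 0.0472), without replicate 3 (0.28, q = 0.0229) and without the 3 libraries high in lens genes (0.20, q = 0.0443). The CAST/EiJ call was lost after quantile normalization (-0.18, q = 0.0147), without CAST/EiJ replicate 1 (-0.23, q = 0.0191) and without replicate 3 (-0.20, q = 0.0337).

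The 7 endothelial genes did not move as a unit. To set them beside each other, each gene's log2 level was taken relative to the mean of the other 6 in the same library, and the mean over strains was subtracted. Relative Kdr stood at 0.47 in PWK/PhJ, 0.85 in CAST/EiJ and -0.66 in C57BL/6J. Relative Flt1 was also high in CAST/EiJ, at 0.47, but -0.23 in PWK/PhJ. Relative Pecam1 was -0.44 in PWK/PhJ and 0.29 in C57BL/6J, and relative Cldn5 was -0.45 in CAST/EiJ. The ratio of Kdr to Pecam1 in cpm was 53.3, 49.5 and 41.8 in the CAST/EiJ libraries and 44.6, 38.5 and 40.6 in those of PWK/PhJ. In C57BL/6J it was 14.7, 12.8 and 13.2. No library of the other 6 strains reached those of CAST/EiJ and PWK/PhJ, the highest being 26.9 in A/J. The means were 41.3 ± 3.10 in PWK/PhJ, 48.2 ± 5.85 in CAST/EiJ and 13.6 ± 1.00 in C57BL/6J (SD, n = 3). The ratio of Kdr to Cdh5 ran the same way, with means of 102 ± 20.6, 124 ± 31.6 and 46.3 ± 4.07. These ratios were not tested. Kdr is known in the retina from neurons as well, and the cells its reads came from were not tested.

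Across the 24 libraries, where 3 libraries share each strain and are not independent of each other, the levels of Cldn5 and Pecam1 had a Pearson correlation of 0.80 (Spearman 0.75), and 0.08 after subtraction of strain means. Kdr and Pecam1 had -0.59 (Spearman -0.56), and -0.28 after that subtraction. Against the mean profile of the 7 endothelial genes, of which each is a part, the correlations were 0.89 for Cldn5, 0.84 for Pecam1, 0.83 for Cdh5, 0.74 for Tie1, 0.64 for Tek and 0.51 for Flt1. Kdr had -0.34. The 3 other genes most like that profile over the 24 libraries were Tmem44 (0.92), Fli1 (0.86) and Rps6ka2 (0.86).

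Vegfa (chr17:46016993-46032370, minus strand) encodes the VEGF ligand of the receptors above. Its libraries gave 53.0, 51.1 and 52.7 cpm in PWK/PhJ, 56.1, 50.1 and 50.1 in CAST/EiJ, and 50.4, 43.4 and 47.8 in NOD/ShiLtJ. They gave 42.3, 51.0 and 38.2 cpm in 129S1/Svlmj, 45.6, 38.2 and 47.2 in WSB/EiJ, and 37.2, 43.4 and 40.5 in C57BL/6J. The lowest strains had 41.2, 37.1 and 36.6 cpm in A/J and 33.1, 36.9 and 36.9 in NZO/HlLtJ. All neighbours in the order overlapped, while NZO/HlLtJ at the low end had no library as high as any of PWK/PhJ or CAST/EiJ. PWK/PhJ had a mean of 52.3 ± 1.02 cpm (SD, n = 3), 1.22-fold the mean of the other strains, with a log2 difference of 0.29 (SE 0.0674, q = 0.000317). CAST/EiJ had 52.1 ± 3.45 cpm and a difference of 0.28 (SE 0.0674, q = 0.000376). NZO/HlLtJ had 35.6 ± 2.16 cpm, 78.5 percent of the mean of the others, and a difference of -0.33 (SE 0.0674, q = 0.000272). A/J was lower, with a difference of -0.21 (SE 0.0674, q = 0.00731), which was lost without A/J replicate 2 (-0.19, q = 0.0498), A/J replicate 3 (-0.18, q = 0.0551) or NZO/HlLtJ replicate 2 (-0.21, q = 0.0102). That call was also lost with no filter on low values (q = 0.0142), with Benjamini-Hochberg adjustment (q = 0.017) and with ordinary least squares (q = 0.0164).

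CAST/EiJ and PWK/PhJ were thus higher in both Vegfa and Kdr. Over the 24 libraries Vegfa and Kdr had a Pearson correlation of 0.50 (Spearman 0.49), and -0.03 after subtraction of strain means, so that the shared order lay between strains and not between libraries of a strain. The ratio of Vegfa to Kdr, in cpm, was 0.634 ± 0.0263 in PWK/PhJ and 0.534 ± 0.0152 in CAST/EiJ, with the highest mean in WSB/EiJ, 0.825 ± 0.153, where Kdr was lowest, and the lowest in NZO/HlLtJ, 0.513 ± 0.0567 (SD, n = 3). The 3 genes most like Vegfa over the 24 libraries were Pnmal2 (0.89), Prss38 (0.87) and Pirt (0.85).

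Hif1a (chr12:73901375-73947531, plus strand) encodes HIF-1 alpha and had the highest level of the 10 members per kilobase of exon. Its libraries gave 326, 324 and 304 cpm in NOD/ShiLtJ, 318, 289 and 286 in NZO/HlLtJ, and 306, 269.9 and 297 in C57BL/6J. They gave 272, 273 and 301 cpm in A/J, 267, 274 and 275 in 129S1/Svlmj, and 259.9, 265 and 245 in PWK/PhJ. The lowest strains had 258, 246 and 258 cpm in CAST/EiJ and 227, 202 and 210.3 in WSB/EiJ. The WSB/EiJ libraries lay below all 21 others. Of the other neighbours 129S1/Svlmj and PWK/PhJ lay apart and the rest overlapped. WSB/EiJ had a mean of 213 ± 12.6 cpm (SD, n = 3), 75.6 percent of the mean of the other strains, with a log2 difference of -0.40 (SE 0.0423, q = 3.65e-08). NOD/ShiLtJ had 318 ± 12.1 cpm and a difference of 0.26 (SE 0.0423, q = 2.38e-05). NZO/HlLtJ was higher, with a difference of 0.15 (SE 0.0423, q = 0.00358), which was lost without NZO/HlLtJ replicate 1 (0.10, q = 0.0765). Exons of Hif1a overlap those of the predicted genes Gm15283, on the opposite strand, over 5.6 percent of their length, and Gm49321, on the same strand, over 2.51 percent. The 3 genes most like Hif1a over the 24 libraries were Rps15a (0.92), Ap4s1 (0.89) and Tcea1 (0.89).

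Epas1 (chr17:86753700-86833411, plus strand) encodes HIF-2 alpha, a form known from endothelium and glia. Its libraries gave 26.0, 20.9 and 28.9 cpm in WSB/EiJ, 20.8, 19.3 and 24.6 in NOD/ShiLtJ, and 20.9, 24.2 and 19.5 in CAST/EiJ. They gave 16.8, 22.3 and 20.01 cpm in C57BL/6J, 19.4, 18.01 and 20.4 in PWK/PhJ, and 20.7, 16.6 and 12.4 in A/J. The lowest strains had 13.7, 16.5 and 18.3 cpm in NZO/HlLtJ and 14.7, 15.7 and 13.4 in 129S1/Svlmj. All neighbours in the order overlapped, and the SD within strains was 0.200 on log2(cpm + 1). WSB/EiJ, lowest for Hif1a, was highest for Epas1, at 25.3 ± 4.04 cpm (SD, n = 3) with a log2 difference of 0.44 (SE 0.108, q = 0.000979), and 3 libraries of other strains lay above its lowest. In 129S1/Svlmj the mean was 14.6 ± 1.16 cpm and the difference -0.41 (SE 0.108, q = 0.00231). The WSB/EiJ call was lost without WSB/EiJ replicate 3 (0.34, q = 0.0229) and the 129S1/Svlmj call without 129S1/Svlmj replicate 1 (-0.42, q = 0.011) or replicate 3 (-0.35, q = 0.0288). The 3 genes most like Epas1 were Doc2b (0.89), Cngb1 (0.86) and Cep164 (0.84).

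The ratio of Epas1 to Hif1a, in cpm, was 0.115, 0.103 and 0.137 in the WSB/EiJ libraries. All 3 lay above the other 21 libraries, of which the highest was 0.0985, in CAST/EiJ. The means were 0.119 ± 0.0172 in WSB/EiJ, 0.0849 ± 0.0121 in CAST/EiJ and 0.0537 ± 0.00451 in 129S1/Svlmj (SD, n = 3), and they were not tested. Hif1a and Epas1 had a Pearson correlation of -0.50 (Spearman -0.48) over the 24 libraries, and -0.62 after subtraction of strain means. After that subtraction Hif1a also had correlations of -0.55 with Cldn5, -0.55 with Flt1 and -0.54 with Tie1, so that the negative value is not a trait of this pair alone. In the same way Epas1 had a correlation of 0.67 with Vegfa and 0.74 with Flt1, but -0.56 with Pecam1 and -0.41 with Tek. Hif1a had 0.36 with Pecam1 and 0.37 with Tek.

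Promoter sequence is shown for Kdr and Vegfa because both were higher in CAST/EiJ and PWK/PhJ, and for Hif1a because all 3 of its WSB/EiJ libraries lay below the other 21. RefSeq promoters on GRCm38.p6 were matched by symbol for 7 of the 10 members, Cldn5, Kdr, Flt1, Tek, Tie1, Vegfa and Hif1a, with 2 starts for Vegfa, and Cdh5, Pecam1 and Epas1 had no entry. Each line gives the 250 bases upstream of the start, read 5′ to 3′ on the strand of the gene. They are chr5:75978456-75978705, minus strand, for Kdr, chr17:46032378-46032627, minus strand, for the outer start of Vegfa, and chr12:73907617-73907866, plus strand, for Hif1a, whose start in RefSeq lies inside the gene bounds of the table. Capitals mark GGGCGG or its reverse complement CCGCCC, the letters of a GC box, and ACGTG or GCGTG or their reverse complements CACGT and CACGC, the 2 forms of the core of the element that hypoxia-inducible factors bind. These are sequences of the reference genome, and the sequences of the strains were not read.
Kdr: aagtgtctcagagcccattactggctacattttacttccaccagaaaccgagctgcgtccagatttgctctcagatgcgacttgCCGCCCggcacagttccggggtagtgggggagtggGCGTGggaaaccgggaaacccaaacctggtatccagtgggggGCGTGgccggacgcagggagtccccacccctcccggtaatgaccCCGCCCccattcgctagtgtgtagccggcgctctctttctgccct
Vegfa: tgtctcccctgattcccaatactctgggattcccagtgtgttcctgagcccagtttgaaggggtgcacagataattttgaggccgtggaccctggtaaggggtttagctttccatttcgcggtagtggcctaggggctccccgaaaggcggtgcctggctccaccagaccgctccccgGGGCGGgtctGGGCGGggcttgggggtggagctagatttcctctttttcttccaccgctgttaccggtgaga
Hif1a: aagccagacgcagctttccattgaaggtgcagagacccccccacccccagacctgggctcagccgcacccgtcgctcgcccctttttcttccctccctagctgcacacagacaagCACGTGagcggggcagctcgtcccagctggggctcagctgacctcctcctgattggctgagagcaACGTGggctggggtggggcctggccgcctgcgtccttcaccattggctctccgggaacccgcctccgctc
GGGCGG on either strand occurred 2 times upstream of Kdr, 2 times upstream of Vegfa, 3 times upstream of Flt1, 1 time upstream of Cldn5 and 0 times upstream of Tek, Tie1 and Hif1a, and it was found in 32.7 percent of the 32851 RefSeq promoters of this length. ACGTG on either strand occurred 3 times upstream of Hif1a, counting CACGTG once on each strand where the matches overlap, and 0 times in the windows of Kdr and Vegfa shown. The second start of Vegfa (chr17:46025164-46025413, minus strand), not shown, had 1 match of each of the 3 motifs. The letters ACGTG were found in 16.6 percent of promoters. GCGTG on either strand occurred 2 times upstream of Kdr, 1 time upstream of Flt1 and 0 times in the windows of Vegfa and Hif1a shown, and it was found in 28.2 percent of promoters. A match describes letters in the window and not a bound site.

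Other endothelial genes were read from a list of 22, of which 18 were tested and 17 differed between strains, beside 91.7 percent of all genes, and the counts that differ in the lists below are to be read beside the same share, and those in a strain beside the shares of all genes higher or lower there, given above. In CAST/EiJ 1 was higher and 8 were lower (28.8 percent of all genes were lower there), with a median difference of -0.18 (log2) beside -0.03 for all genes, in the direction of Cdh5, Cldn5, Pecam1, Tek and Tie1. In 129S1/Svlmj 6 were higher (14.3 percent of all genes) and 1 lower, with a median of 0.12 beside 0.00, although no endothelial member was called there. Without 129S1/Svlmj replicate 2, which was high in lens genes, 1570 of 16385 genes were higher in that strain, against 2341 of 16400 with it. The counts of this list and of the lists below are given for all 24 libraries only. C57BL/6J had 4 higher (12.5 percent of all genes) and 0 lower, and PWK/PhJ 1 higher and 4 lower (22.4 percent of all genes). A/J, where Cdh5, Cldn5 and Flt1 were higher, had 1 higher (14.6 percent of all genes) and 2 lower, with a median of 0.01. Ptprb, a phosphatase of TIE2 and VE-cadherin and the gene of the list with the most reads, had 7.50, 10.6 and 10.3 cpm in CAST/EiJ, with a difference of -0.38 (SE 0.0733, q = 4.55e-05). Cd93 was highest in C57BL/6J (4.01, 4.64 and 3.52 cpm) and lowest in CAST/EiJ (1.05, 1.66 and 1.72 cpm), the same ends as Cldn5. Vwf, which encodes von Willebrand factor, ran from 2.73, 3.45 and 2.90 cpm in WSB/EiJ to 0.439, 0.661 and 0.753 cpm in NZO/HlLtJ, ends that no endothelial member shared.

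Of 16 genes of the barrier and its transporters, 13 were tested and 13 differed between strains. In CAST/EiJ 9 were lower, with a median of -0.29, where 28.8 percent of all genes were lower. In C57BL/6J 5 were higher and 1 lower, with a median of 0.14, where 12.5 percent of all genes were higher. In 129S1/Svlmj 4 were higher and 0 lower, with a median of 0.13, where 14.3 percent of all genes were higher. Slc16a1, which encodes a lactate carrier, had the most reads of the list at a mean of 86.0 cpm. Slc7a5, an amino acid carrier, ranged from 9.95, 11.4 and 11.6 cpm in A/J to 3.53, 4.44 and 5.33 cpm in NZO/HlLtJ, and the thyroid hormone carrier Slco1c1 from 7.34, 7.66 and 6.75 cpm in NOD/ShiLtJ to 2.88, 3.14 and 3.83 cpm in A/J. Of 9 genes of norrin and Wnt signalling to retinal vessels, 9 differed, with 5 higher in A/J (median 0.22), where 14.6 percent of all genes were higher, and 4 lower in CAST/EiJ (median -0.14), where 28.8 percent were lower. Ctnnb1 had the most reads of that list, Apcdd1 ran from 11.5, 10.6 and 11.0 cpm in WSB/EiJ to 6.34, 6.87 and 6.90 cpm in PWK/PhJ, and Tspan12 from 4.33, 4.74 and 4.46 cpm in PWK/PhJ to 2.80, 2.46 and 2.60 cpm in NZO/HlLtJ. Of 15 further genes of VEGF, angiopoietin and tip cell signalling, 10 were tested and 10 differed, and CAST/EiJ had 2 higher and 4 lower (median -0.09). Nrp2 had the most reads. Angpt1, the ligand that activates TIE2, was lowest in CAST/EiJ (0.315, 0.398 and 0.405 cpm), where Tek was low, and highest in WSB/EiJ (1.39, 1.57 and 1.79 cpm), where Tek was also low. Apln, which encodes a ligand made by endothelial tip cells, was highest in CAST/EiJ (2.60, 2.003 and 2.21 cpm) and low in both C57BL/6J (0.415, 0.678 and 0.572 cpm) and NZO/HlLtJ (0.586, 0.546 and 0.533 cpm). It was also called higher in WSB/EiJ (1.83, 1.13 and 1.63 cpm), where Kdr was lowest.

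Of 11 genes that regulate hypoxia-inducible factors, 10 were tested and 10 differed. WSB/EiJ, where Hif1a was lowest, had 4 higher and 2 lower, with a median of 0.10 beside -0.04 for all genes. Crebbp had the most reads, Hif3a ran from 2.18, 2.21 and 3.38 cpm in WSB/EiJ to 0.849, 1.03 and 0.753 cpm in NZO/HlLtJ, and Hif1an, which encodes an oxygen-sensing hydroxylase of the alpha subunits, from 38.8, 35.2 and 36.2 cpm in PWK/PhJ to 21.3, 24.0 and 20.3 cpm in 129S1/Svlmj. Of 27 genes known as targets of these factors, 23 were tested and 23 differed. WSB/EiJ had 3 higher and 10 lower (median -0.11), where 21.5 percent of all genes were lower, and A/J had 2 higher and 11 lower (median -0.15), where 12.3 percent were lower. C57BL/6J had 8 higher and 0 lower (median 0.14), where 12.5 percent were higher. CAST/EiJ had 7 higher and 4 lower (median 0.11) and PWK/PhJ 6 higher and 4 lower (median 0.09), where 20.0 and 26.0 percent of all genes were higher. NOD/ShiLtJ, where Hif1a was highest, had 5 higher and 1 lower (median 0.05), where 14.5 percent were higher. NZO/HlLtJ, where Hif1a was also higher, had 3 higher and 6 lower (median -0.06), where 12.9 percent were lower. In 129S1/Svlmj 3 were higher and 2 lower (median 0.04), where 14.3 percent were higher. Vegfa, itself such a target, was called lower in A/J but not in WSB/EiJ or C57BL/6J. Aldoa had the most reads of the targets and was lower in WSB/EiJ (350.2, 261 and 291 cpm, -0.41 (SE 0.0672, q = 1.71e-05)). Hk2, the hexokinase of glycolysis, was highest in PWK/PhJ (184, 178 and 182 cpm) and CAST/EiJ (186, 171 and 160.4 cpm), the strains where Vegfa was highest, and lowest in A/J (52.4, 45.2 and 45.1 cpm). It was also called higher in NZO/HlLtJ (113, 126 and 126 cpm), where Vegfa was lowest, and in C57BL/6J (114, 119.5 and 125 cpm), where Vegfa was not called. Eno1 ranged from a mean of 147 cpm in C57BL/6J to 13.5 cpm in CAST/EiJ, but its near-identical copy Eno1b had 206 and 348 cpm, and their sum was 354 ± 4.73 and 361 ± 33.1 cpm (SD, n = 3), so that reads shared by the copies cannot be told apart. The counts of targets above include Eno1, as lower in CAST/EiJ and PWK/PhJ and as higher in each of the other strains.

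Of 16 pericyte and smooth muscle genes, 12 were tested and 10 differed, with 4 higher in C57BL/6J (median 0.11), where 12.5 percent of all genes were higher, and 2 higher and 3 lower in CAST/EiJ (median -0.17), where 28.8 percent were lower. PWK/PhJ had 1 higher, Rgs5, and 4 lower (median -0.14), where 22.4 percent were lower. Vtn had the most reads, and Cox4i2 ran from 2.17, 3.74 and 2.52 cpm in C57BL/6J to 0.814, 0.779 and 0.823 cpm in NOD/ShiLtJ. Rgs5, a marker of pericytes, was 6.85, 9.12 and 10.3 cpm in CAST/EiJ, below the libraries of all other strains, and 23.6, 29.8 and 34.4 cpm in WSB/EiJ. Of 10 astrocyte and Mueller glia genes, 9 were tested and 9 differed, with 4 higher in A/J (median 0.17), 4 higher in NOD/ShiLtJ (median 0.18), 1 higher and 5 lower in WSB/EiJ (median -0.20), 4 lower in NZO/HlLtJ (median -0.04), and 2 higher and 4 lower in CAST/EiJ (median -0.23). The part of the glia genes in the member differences was not tested. Glul had the most reads, Kcnj10 ran from 16.1, 15.5 and 13.5 cpm in A/J to 6.52, 6.32 and 5.81 cpm in C57BL/6J, and Gfap from 15.0, 10.9 and 10.9 cpm in A/J to 2.38, 2.60 and 3.21 cpm in WSB/EiJ.

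Marker genes of tissue next to the retina also differed between strains, and whether their RNA came from that tissue was not tested. Of 16 genes of the pigment epithelium and choroid, a tissue with endothelium of its own, 13 were tested and 13 differed. CAST/EiJ had 12 lower (median -0.71), PWK/PhJ 8 lower (median -0.61), A/J 8 higher (median 0.65) and WSB/EiJ 6 higher (median 0.42). The summed level was 63.3, 76.3 and 60.9 cpm in 129S1/Svlmj, 58.6, 32.7 and 56.1 in C57BL/6J, 81.0, 43.8 and 40.8 in NOD/ShiLtJ, and 53.0, 91.4 and 101 in A/J. It was 23.8, 34.5 and 19.9 cpm in PWK/PhJ, 115, 68.8 and 75.8 in WSB/EiJ, 27.8, 31.8 and 24.1 in NZO/HlLtJ, and 23.1, 19.1 and 21.8 in CAST/EiJ. The sums were low in CAST/EiJ and PWK/PhJ, where Cdh5 and Pecam1 were lower, and in NZO/HlLtJ, where neither was called and Tek was higher. They were high in A/J, where Cdh5, Cldn5 and Flt1 were higher, and highest in WSB/EiJ, where no endothelial member was higher and Kdr and Tek were lower. In C57BL/6J, where Cldn5 and Pecam1 were highest, no gene of the list was called. The part of these genes in the member differences was not tested. Within A/J, replicate 1 had the lowest sum and the lowest Cdh5 and Pecam1 of the 3, and replicate 3 the highest of each, while Cldn5 and Flt1 were lowest in replicate 3. Rgr, which Mueller glia also express, had the most reads of the list (mean 12.3 cpm), and Ttr ran from 30.1, 20.2 and 20.5 cpm in WSB/EiJ to 4.00, 6.62 and 2.80 cpm in PWK/PhJ and Pmel from 12.1, 3.99 and 2.73 cpm in NOD/ShiLtJ to 0.493, 0.398 and 0.444 cpm in CAST/EiJ. Rpe65, a defining marker, was 1.67, 4.61 and 7.74 cpm in A/J and 1.55, 1.18 and 1.501 cpm in CAST/EiJ, and Best1 was listed at 0.0001 cpm, the constant added to all values, in every library of A/J and WSB/EiJ.

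**Figure D3:**
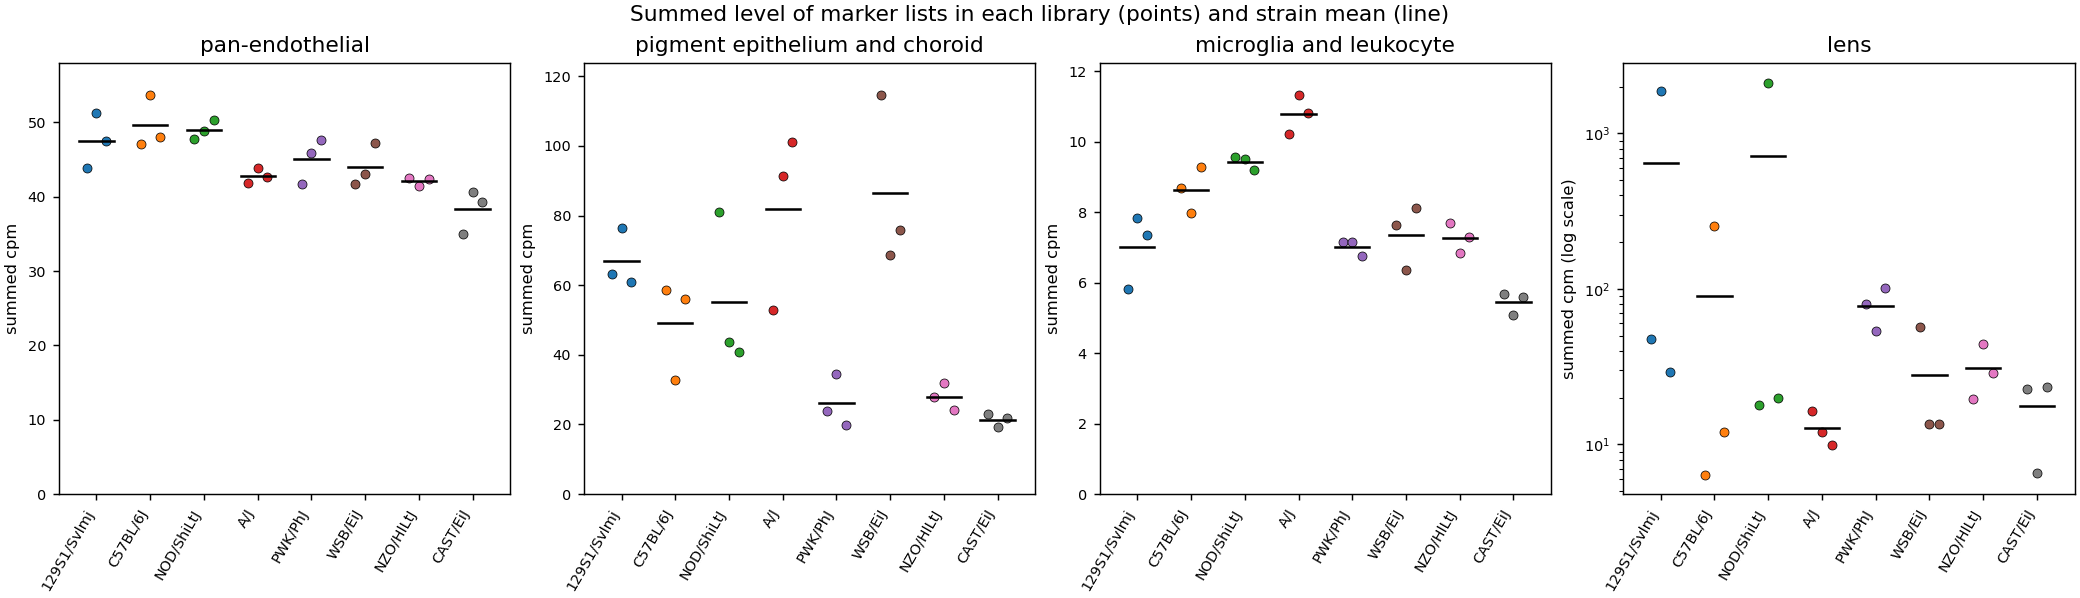
Summed level in cpm of the genes of 4 lists (other endothelial genes, pigment epithelium and choroid, microglia and leukocytes, lens) in each of the 24 libraries by strain. The axis is logarithmic for the lens list only. Lens genes stand at 1871 and 2120 cpm in single libraries of 129S1/Svlmj and NOD/ShiLtJ.

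Of 10 microglia and leukocyte genes, 4 were tested and 4 differed, with 4 higher in A/J (median 0.42) and 4 lower in CAST/EiJ (median -0.27). The summed level was 5.82, 7.83 and 7.36 cpm in 129S1/Svlmj, 8.67, 7.97 and 9.27 in C57BL/6J, 9.56, 9.51 and 9.19 in NOD/ShiLtJ, and 10.2, 11.3 and 10.8 in A/J. It was 7.14, 7.15 and 6.74 cpm in PWK/PhJ, 7.62, 6.35 and 8.11 in WSB/EiJ, 7.70, 6.83 and 7.29 in NZO/HlLtJ, and 5.69, 5.07 and 5.60 in CAST/EiJ. It was lowest in CAST/EiJ, where Pecam1 was lower, and highest in A/J, where Pecam1 was not called. In PWK/PhJ, where the mean of Pecam1 was lowest, the sum was close to those of 129S1/Svlmj and NZO/HlLtJ. The part of this list in the member differences was not tested. Csf1r had the most reads (mean 2.57 cpm), the widest ranges were those of Cx3cr1 (0.67, log2) and C1qa (0.66), and Tmem119 was above the 3-read level in every library. Of 10 red cell and platelet genes, 4 were tested and 4 differed. Their sum was 28.1, 18.4 and 17.3 cpm in 129S1/Svlmj, 20.4, 25.9 and 7.73 in C57BL/6J, 24.9, 30.6 and 31.1 in NOD/ShiLtJ, and 25.3, 21.7 and 22.1 in A/J. It was 22.2, 7.90 and 15.3 cpm in PWK/PhJ, 16.2, 13.8 and 15.2 in WSB/EiJ, 18.7, 19.8 and 21.7 in NZO/HlLtJ, and 13.3, 11.3 and 13.0 in CAST/EiJ. Hbb-bs had the most reads (mean 9.90 cpm), and the widest ranges were those of Hba-a2 (1.99, log2) and Hba-a1 (1.63), near-identical copies that may share reads. NOD/ShiLtJ had 2 higher (median 0.76), PWK/PhJ 2 lower (median -0.45), CAST/EiJ 2 lower (median -0.38) and WSB/EiJ 2 lower (median -0.31). C57BL/6J, where Pecam1 was highest, had 1 higher and 1 lower (median 0.01), and Pecam1 was not called in WSB/EiJ. The part of this list in the member differences was not tested. Of 12 lens genes, 12 were tested, and 0 were called by limma in the F-test. It follows that 0 had an unadjusted F-test p from limma under 0.05, which is here a stricter limit than the q limit. Cryaa had the most reads (mean 74.3 cpm), and Cryba1 (3.28, log2) and Cryaa (3.26) had the widest ranges, both highest in 129S1/Svlmj and lowest in A/J. The lens sum was 47.7, 1871 and 29.0 cpm in 129S1/Svlmj, 6.41, 253 and 12.1 in C57BL/6J, 17.9, 2120 and 19.99 in NOD/ShiLtJ, and 16.4, 12.1 and 9.86 in A/J. It was 80.0, 53.9 and 101 cpm in PWK/PhJ, 57.1, 13.6 and 13.4 in WSB/EiJ, 19.6, 44.0 and 28.9 in NZO/HlLtJ, and 22.8, 6.51 and 23.6 in CAST/EiJ.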

How the data were processed

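Values were the deposited cpm of the authors, who trimmed reads, aligned those of all strains to the same reference (GRCm38/mm10) with STAR, assigned them to genes with the E/M model of Partek, divided by the reads of the library and added 0.0001. According to the study's methods each library is a biological replicate and genes follow RefSeq, while the table's columns are of an Ensembl type. The kit is stranded, and use of strand in counting is not stated. Depths of 57607000 to 78150000 reads were recovered from the spacing of low values, of which 88.2 to 90.6 percent were whole reads within 0.02; the rest were fractional, so no count test was run. The mean sequencing depth that the study states lies above most of the recovered depths, and the difference was not examined. Read limits cover counting error only.

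The 16400 genes whose mean reached 0.5 cpm were fitted with limma 3.58.1 in R 4.3.3 on log2(cpm + 1), with a mean per strain and eBayes with a trend, two-sided. Calls are Storey q-values (share of true nulls from p above 0.5) under 0.01 over all genes tested. The added 1 makes log2 differences of genes with low cpm smaller than those of cpm itself. The test was checked on simulated data. Alternatives were a pseudocount of 0.1, no filter and a filter at 5 cpm, median-ratio scaling, quantile normalization, Benjamini-Hochberg adjustment, a q limit of 0.05, ordinary least squares, and leaving out each library. From each list the gene with the most reads and the 2 with the widest range of strain means are named, and for each of 4 profiles the 3 genes with the highest correlation; any other gene named was chosen after its values were seen. The members and lists were chosen with earlier results of these data known. Phenotypes of the strains were not used.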

Additional observations from a re-analysis of the deposited data

How the results depend on the processing

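Of the 33 differences called, 19 were called in the same direction under all alternatives that tested the gene, 14 were not called under at least 1 of the 33 alternatives, and 0 reversed. With a filter at 5 cpm, which left 5 members to test, 5 members differed between strains (94.3 percent of 9274 genes), and 2 were called in 129S1/Svlmj (28.8 percent of all genes tested), 1 in C57BL/6J (21.7), 2 in A/J (27.8), 3 in PWK/PhJ (49.7) and 2 in CAST/EiJ (49.4). With a q limit of 0.05 the counts were 4 in 129S1/Svlmj (42.6 percent of all genes, 26.9 in the main fit) and 8 in PWK/PhJ (63.6 percent, 48.4 in the main fit), and median-ratio scaling gave 8 in PWK/PhJ (49.1 percent). In A/J, 2 were called with no filter (17.5 percent), 2 with Benjamini-Hochberg adjustment (22.0 percent) and 3 with ordinary least squares (25.5 percent), beside 27.0 percent of all genes in the main fit. Apart from the filter the cause of these changes was not tested. When each library was left out in turn, 10 members always differed between strains. The counts called then ran from 0 to 2 in 129S1/Svlmj (0 without 129S1/Svlmj replicate 3, 2 without A/J replicate 3, WSB/EiJ replicate 1 or 3, or CAST/EiJ replicate 3), 4 to 5 in C57BL/6J, 1 to 3 in NOD/ShiLtJ (1 without NOD/ShiLtJ replicate 1), 1 to 5 in A/J (1 without A/J replicate 2, 2 without A/J replicate 3, 3 without NZO/HlLtJ replicate 2), 4 to 6 in PWK/PhJ, 3 to 5 in WSB/EiJ, 1 to 3 in NZO/HlLtJ (1 without NZO/HlLtJ replicate 1) and 5 to 8 in CAST/EiJ. The shares of all genes called then ran from 17.9 to 28.5 percent in 129S1/Svlmj, 16.1 to 23.7 in C57BL/6J, 15.2 to 24.7 in NOD/ShiLtJ and 17.4 to 28.4 in A/J. They ran from 38.7 to 49.5 percent in PWK/PhJ, 23 to 34.9 in WSB/EiJ, 15.5 to 26.4 in NZO/HlLtJ and 38.7 to 50 in CAST/EiJ. With the 3 libraries over 200 cpm of lens genes left out, an alternative chosen after seeing the data, 31 of the 33 differences were called. No paired analysis was possible because the labels carry no replicate numbers, those used here are the order of listing, and the sequencing blocks that the study used are not given. Tie1 and Cdh5 are the members with the fewest reads, and counting error was not estimated for each member.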
